A study of Rattus norvegicus with 12 samples.

Results

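The genes described here mark the repair of skeletal muscle, and they were followed in the fracture hematoma of rats on day 3 after an osteotomy. They were chosen by name and not by a rule on their values, but with earlier results of these data known. The set held the satellite cell and myoblast regulators Pax7, Myf5, Myod1, Myog and Myf6. It also held the embryonic and perinatal myosin heavy chains Myh3 and Myh8, and the acetylcholine receptor subunits Chrna1 and Chrng. For each gene the probe set named for that gene alone with the highest mean signal was taken, and 7 of the 9 genes had one, of 14217 genes with such a probe set. No probe set carried only the symbol Pax7 or Myf5, so both were not analysed here. The other 7 genes had 1 probe set each, so no gene could be checked against another probe set of its own.

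The animals were female Sprague–Dawley rats whose left femur had been cut at midshaft through an anterolateral approach, leaving a gap of 1.5 mm under an external fixator. The groups were young rats of 12 weeks with semi-rigid fixation (YSR) or rigid fixation (YR), and old rats of 52 weeks with semi-rigid (OSR) or rigid (OR) fixation. Semi-rigid fixators stood 15 mm off the bone and rigid ones 7.5 mm. Each group held 3 arrays, each array measured RNA pooled from 3 animals, and no group without a fracture was analysed here. The replicate spread is therefore that between pools, and the number of arrays limits the precision. The question of each comparison was whether gene expression in the hematoma depended on age, on fixation stability or on both together.

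Skeletal muscle is repaired by satellite cells, stem cells that lie beside the muscle fibre and carry Pax7. After injury they become myoblasts that express Myf5 and Myod1, leave the cell cycle as Myog and Myf6 come on, and fuse into new fibres, which first make embryonic and perinatal myosins and only later the adult forms. Fibres that are new or have lost their nerve also carry the fetal form of the acetylcholine receptor, in which the gamma subunit Chrng takes the place of the adult epsilon subunit Chrne.

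The signal of adult muscle genes differed widely between arrays, and no detection call was used. The hematoma was taken with forceps from between the fragments, and its content of adult muscle was read from Ckm, the muscle creatine kinase, and Acta1, the skeletal muscle alpha-actin. Their mean log2 signal was 13.22, 12.50 and 12.05 in the YSR arrays, 13.55, 12.52 and 12.97 in YR, 8.45, 14.28 and 13.17 in OSR, and 13.14, 6.89 and 10.71 in OR. OSR array 1 and OR array 2 stood apart as the arrays of lowest adult muscle level, both of them in the old groups. OR array 3 came next. In bulk tissue, fewer muscle cells and less RNA per muscle cell cannot be told apart. The main results below are therefore also given without the first 2 of these arrays. Of the whole list of adult fibre genes, 24 of 25 were measured, 0 at the floor of 1 on any array, and the summed linear signal of the list ranged from 43093 to 105766 in YSR, from 66255 to 118795 in YR, from 13073 to 174513 in OSR and from 18459 to 96757 in OR. The brightest probe set of Myh1, which stayed bright on every array, made up 72.3% of this sum in OSR array 1 and 82.96% in OR array 2. Without Myh1 the sums of the other 23 genes ranged from 34212 to 97206 in YSR, from 59306 to 109666 in YR, from 3616 to 162667 in OSR and from 3146 to 80252 in OR, the lowest being those of OSR array 1 and OR array 2. Another quality measure, the log2 ratio of the 3' to the 5' control probe set of Gapdh, was 6.69 in YSR array 1 and 2.95 in OR array 1, against 0.33 to 1.59 in the other 10 arrays.

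Across age, every measured regeneration gene had a lower mean in the old than in the young rats, but none passed the test. The log2 difference (old minus young, averaged over fixation) was below 0 for 7 of 7 genes with a median of -1.26, against a median of 0.02 over all 31042 probe sets tested. At an adjusted p under 0.05 (limma, Benjamini-Hochberg over all probe sets), 0 of 7 were called, where 0.00644% of all probe sets were. At an unadjusted p under 0.05, Myod1, Myog and Chrna1 were lower (3 of 7), against 3.89% of all probe sets lower. Without OSR array 1 and OR array 2, 6 of 7 means were below 0 with a median of -0.78, 1 of 7, Myod1, had an unadjusted p under 0.05 (2.31% of all probe sets lower), and 0 of 7 were called (0%). The adult fibre genes had the same direction for 23 of 24 genes, with a median of -1.35 and 0 called.

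**Figure D1:**
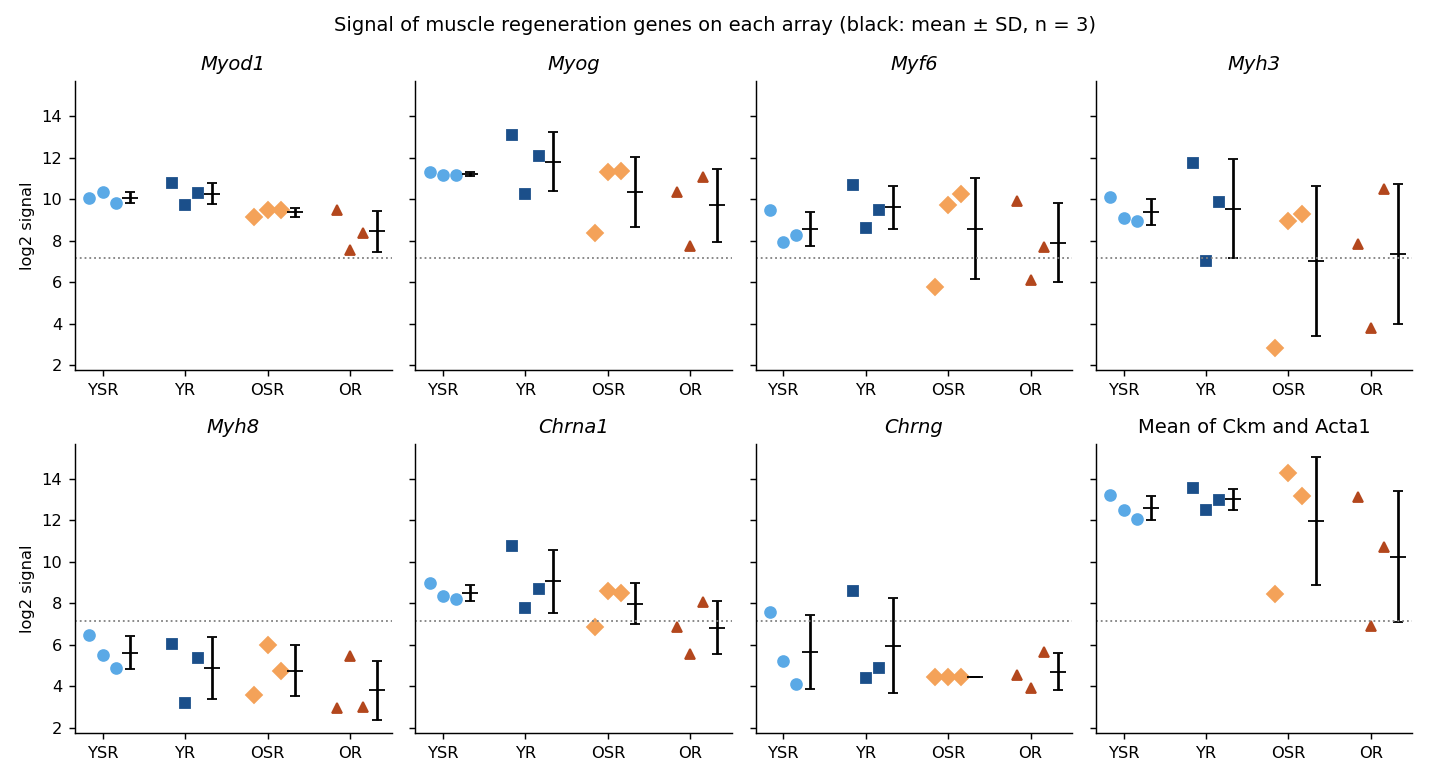
Log2 signal of the 7 measured regeneration genes and of the mean of Ckm and Acta1 (vertical axis) on each of the 12 arrays, by group (horizontal axis; YSR and YR, young semi-rigid and rigid; OSR and OR, old semi-rigid and rigid). Points are arrays, black marks are the group mean with its SD (n = 3), and the dotted line is the median of all probe sets (7.16). Myod1 is the gene whose old and young arrays do not overlap, and Myh8 and Chrng lie mostly below the dotted line.

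Myod1, the factor that commits a cell to the muscle lineage, had the age difference with the smallest error of the 7 genes. Its log2 signal was 10.08, 10.33 and 9.81 in the YSR arrays, 10.77, 9.73 and 10.31 in YR, 9.13, 9.50 and 9.50 in OSR, and 9.47, 7.53 and 8.35 in OR. All 6 old arrays lay below all 6 young arrays, the highest old value being 9.50 and the lowest young value 9.73. Of all probe sets, 0.171% had their old arrays below their young arrays without overlap. The difference was -1.26 (SE 0.28, 95% interval from -1.86 to -0.65), a ratio of old to young of 0.419, and limma's adjusted p was 0.207, the gene ranking 95 of 31042 by p. Under rigid fixation (OR minus YR) the difference was -1.82 (adjusted p 0.212 by limma), and under semi-rigid fixation (OSR minus YSR) it was -0.69 (adjusted p 0.959). That the 3 old arrays lay below the 3 young arrays in both pairs follows from the separation of all 6 and adds nothing to it. Of all probe sets, 6.04% and 4.9% had such a pair. The interaction of age and fixation, which tests whether these 2 differences differ, was -1.12 (SE 0.56, adjusted p 0.990 by limma). It was -0.78 without OSR array 1 and OR array 2, and ranged from -1.63 to -0.66 when each array was left out in turn.

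The age difference of Myod1 was smaller but of the same direction in 2 fits that allow for the adult muscle level, and it turned in another, given further on, where that level was subtracted. With the mean of Ckm and Acta1 as a covariate in limma it was -0.92 (SE 0.21, adjusted p 0.442). Without OSR array 1 and OR array 2 it was -0.96 (SE 0.24, adjusted p 0.704). Over all 21 other settings it ranged from -1.51 to -0.92 and limma's adjusted p from 0.0872 to 0.704, never under 0.05.

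Myog, the factor that switches myoblasts to terminal differentiation, had its highest values in YR and its lowest in 2 old arrays. Its log2 signal was 11.32, 11.16 and 11.16 in YSR, 13.10, 10.26 and 12.08 in YR, 8.39, 11.29 and 11.35 in OSR, and 10.33, 7.72 and 11.05 in OR. The 2 lowest values, 8.39 and 7.72, were those of the arrays of lowest adult muscle level, and the other old arrays lay within the young range. The age difference was -1.49 (SE 0.66, adjusted p 0.557 by limma). Without those 2 arrays it was -0.51.

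Myf6, also called MRF4, is the regulator of the family that is most abundant in adult fibres, and it was lowest in the 2 arrays of lowest adult muscle level. It had log2 signals of 9.49, 7.94 and 8.25 in YSR, 10.69, 8.62 and 9.50 in YR, 5.78, 9.70 and 10.24 in OSR, and 9.91, 6.11 and 7.69 in OR. The old arrays held both the lowest value and one of the highest. The age difference was -0.84 (adjusted p 0.796 by limma) and turned to 0.34 with the adult muscle level as a covariate and to 0.30 without OSR array 1 and OR array 2. In the rat genome Myf6 lies directly beside Myf5, the regulator that was not measured.

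Myh3, the embryonic myosin heavy chain, is a common marker of newly formed fibres, and it varied more within groups than nearly all other probe sets. Its log2 signal was 10.08, 9.11 and 8.94 in YSR, 11.74, 7.0 and 9.86 in YR, 2.83, 8.94 and 9.26 in OSR, and 7.83, 3.78 and 10.49 in OR. It was present at a signal above the median of all probe sets in 4 of the 6 old arrays and lowest, at 2.83 and 3.78, in the 2 arrays of lowest adult muscle level. The range was 8.91 and the SD within groups 2.77, higher than for 99.97% of the 15521 probe sets at least as bright as the median one. The age difference of -2.27 (SE 1.28, adjusted p 0.651 by limma) was within this spread, and without the 2 arrays it was -0.33. One old array, OR array 3, had the second highest Myh3 signal of all 12 arrays (10.49), although its adult muscle level was the third lowest.

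Myh8, the perinatal myosin heavy chain, was dim, with a mean of 4.76 below the median of all probe sets. Its log2 signal was 6.46, 5.51 and 4.87 in YSR, 6.05, 3.20 and 5.37 in YR, 3.56, 5.99 and 4.72 in OSR, and 2.96, 5.46 and 3.02 in OR. The groups overlapped, and the array of lowest adult muscle level, OR array 2, had the highest Myh8 value of its group. The age difference was -0.96 (adjusted p 0.723 by limma), and -1.07 without OSR array 1 and OR array 2. Myh3 and Myh8 lie in one cluster of myosin heavy chain genes with the adult Myh2, Myh1 and Myh4.

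Chrna1 encodes the alpha subunit of the muscle acetylcholine receptor, which is made along the whole fibre before a nerve has settled on it. Its log2 signal was 8.96, 8.37 and 8.21 in YSR, 10.75, 7.77 and 8.68 in YR, 6.85, 8.58 and 8.52 in OSR, and 6.87, 5.54 and 8.09 in OR. The age difference was -1.38 (SE 0.53, adjusted p 0.485 by limma), and it was -2.23 under rigid fixation (adjusted p 0.436) and -0.53 under semi-rigid fixation (adjusted p 0.963). The old and young arrays overlapped between 7.77 and 8.58. Without OSR array 1 and OR array 2 the age difference was -0.78.

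Chrng, the gamma subunit of the fetal receptor, was dim in most arrays, with a mean of 5.19. Its log2 signal was 7.61, 5.21 and 4.10 in YSR, 8.60, 4.42 and 4.88 in YR, 4.44, 4.47 and 4.45 in OSR, and 4.52, 3.93 and 5.66 in OR. It was above the median of all probe sets in 2 young arrays, YSR array 1 and YR array 1, and in none of the 6 old arrays. The age difference was -1.23 (adjusted p 0.688 by limma), and -1.03 without OSR array 1 and OR array 2. YSR array 1 was also the array of the highest Gapdh 3' to 5' ratio, whose part in this value was not tested.

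Myog and the 2 receptor genes are shown with the sequence before their start, since Chrna1 and Myog varied together more closely than most pairs of these genes, and since MyoD, myogenin and their relatives bind the E-box, whose letters are CANNTG. The sequences are the 250 bases upstream of the annotated start (RefSeq, build GRCr8), written in the direction of the gene, with each E-box in capitals. The Myog sequence lies at chr13:48297226-48297475 on the plus strand, the Chrna1 sequence at chr3:78877354-78877603 on the minus strand and the Chrng sequence at chr9:95325734-95325983 on the plus strand.
Myog: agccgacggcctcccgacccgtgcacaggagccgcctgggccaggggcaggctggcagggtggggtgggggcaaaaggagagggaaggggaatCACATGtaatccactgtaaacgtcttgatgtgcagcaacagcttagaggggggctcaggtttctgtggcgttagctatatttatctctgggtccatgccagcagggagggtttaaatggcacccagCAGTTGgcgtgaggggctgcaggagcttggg
Chrna1: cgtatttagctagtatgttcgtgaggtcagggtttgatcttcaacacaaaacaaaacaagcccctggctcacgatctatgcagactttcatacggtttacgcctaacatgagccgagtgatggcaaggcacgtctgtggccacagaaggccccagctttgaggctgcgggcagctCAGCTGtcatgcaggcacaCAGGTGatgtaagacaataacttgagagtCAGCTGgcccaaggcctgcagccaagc
Chrng: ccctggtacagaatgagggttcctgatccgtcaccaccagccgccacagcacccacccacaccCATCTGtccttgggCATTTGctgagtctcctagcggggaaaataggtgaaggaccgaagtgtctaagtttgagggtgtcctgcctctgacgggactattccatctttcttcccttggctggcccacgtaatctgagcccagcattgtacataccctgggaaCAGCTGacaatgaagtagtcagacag

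The Chrna1 stretch held 3 E-boxes, with first bases at -75, -56 and -27 from the start, of which the ones at -75 and -27 had the letters CAGCTG. The Chrng stretch held 3, at -187, -173 and -26, the last of them CAGCTG. The Myog stretch held 2, at -157 and -31, and no CAGCTG. Of the 9 genes 8 had an entry. Among the other 5, Myf6 and Myh3 had 1 E-box each (at -29 and -192), and Myh8, Pax7 and Myf5 had 0. E-boxes are common: of 33469 rat promoters in the same window, 65.5% held at least 1 and 30.8% at least 2. The letters CAGCTG, which read the same on both strands and are included in the E-box count, stood at least once in 12.0% of the promoters and at least 2 times in 1.04%. These matches describe the letters and say nothing of binding in the hematoma.

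Across fixation, the regeneration genes had no common direction. The log2 difference (rigid minus semi-rigid, averaged over age) was above 0 for 3 and below 0 for 4 of the 7 genes, with a median of -0.02 (against -0.0035 over all probe sets), and 0 were called by limma (0% of all probe sets). At an unadjusted p under 0.05 there were 0 of 7, against 2.53% of all probe sets higher and 3.2% lower. The values ran from -0.84 for Myh8 to 0.29 for Chrng. In the young rats (YR minus YSR) 6 of 7 differences were above 0, with a median of 0.32 and 0 of 7 at an unadjusted p under 0.05 (1.6% of all probe sets higher and 2.77% lower). In the old rats (OR minus OSR) 5 of 7 were below 0, with a median of -0.67, the one with an unadjusted p under 0.05 being Myod1 at -0.93 (adjusted p 0.901 by limma), where 2.43% of all probe sets were lower. Called were 0 of 7 in both, as were 0% of all probe sets.

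The gene with an unadjusted p under 0.05 was another without OSR array 1 and OR array 2. The fixation difference was then below 0 for 5 of 7 genes with a median of -0.06, and 1 of 7, Myh8 at -1.55 (adjusted p 0.867 by limma), was lower at that threshold (3.03% of all probe sets). In the old rats 5 of 7 differences were below 0 with a median of -0.63, and Myh8 at -2.36 (adjusted p 0.894) was the 1 lower at that threshold (2.55% of all probe sets), while Myod1 was at -0.59 (adjusted p 0.913). Called were 0 of 7 in both, as were 0% of all probe sets.

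The test of this difference itself, the interaction, was below 0 for 6 of 7 genes, with a median of -1.12 against 0.03 over all probe sets. None was called (0% of all probe sets), and 0 of 7 had an unadjusted p under 0.05 (2.37% of all probe sets higher and 1.43% lower). The largest were -1.71 for Myf6 (SE 1.56) and -1.71 for Chrna1 (SE 1.07), each with an adjusted p of 0.990 by limma. With the adult muscle level as a covariate they were -0.22 and -1.01, and with each array left out in turn they ranged from -3.11 to -0.82 and from -2.36 to -0.86. The interaction without OSR array 1 and OR array 2 was below 0 for 6 of 7 genes with a median of -1.23. Myf6 at -2.21 (adjusted p 0.984 by limma) was then the 1 gene lower at an unadjusted p under 0.05 (1.56% of all probe sets), that of Chrna1 was -1.63, and 0 were called (0%).

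Between the rigid groups (OR minus YR), 7 of 7 differences were below 0 with a median of -1.82, 3 of 7 at an unadjusted p under 0.05 (3.54% of all probe sets lower) and 0 called (0.00322% of all probe sets). Between the semi-rigid groups (OSR minus YSR), 6 of 7 were below 0 with a median of -0.86, 0 of 7 had an unadjusted p under 0.05 (2.03% of all probe sets higher and 2.33% lower) and 0 were called (0.00322%). Over the 10 arrays without OSR array 1 and OR array 2, 7 of 7 differences between the rigid groups were below 0 with a median of -1.12. Of these, 2 of 7 had an unadjusted p under 0.05, Myod1 at -1.35 and Chrna1 at -1.59 (2.66% of all probe sets lower), and 0 were called (0.00644%). Between the semi-rigid groups 4 of 7 were below 0 with a median of -0.26, and 0 were called (0%). There 0 of 7 had an unadjusted p under 0.05, against 1.17% of all probe sets higher and 1.76% lower.

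**Figure D2:**
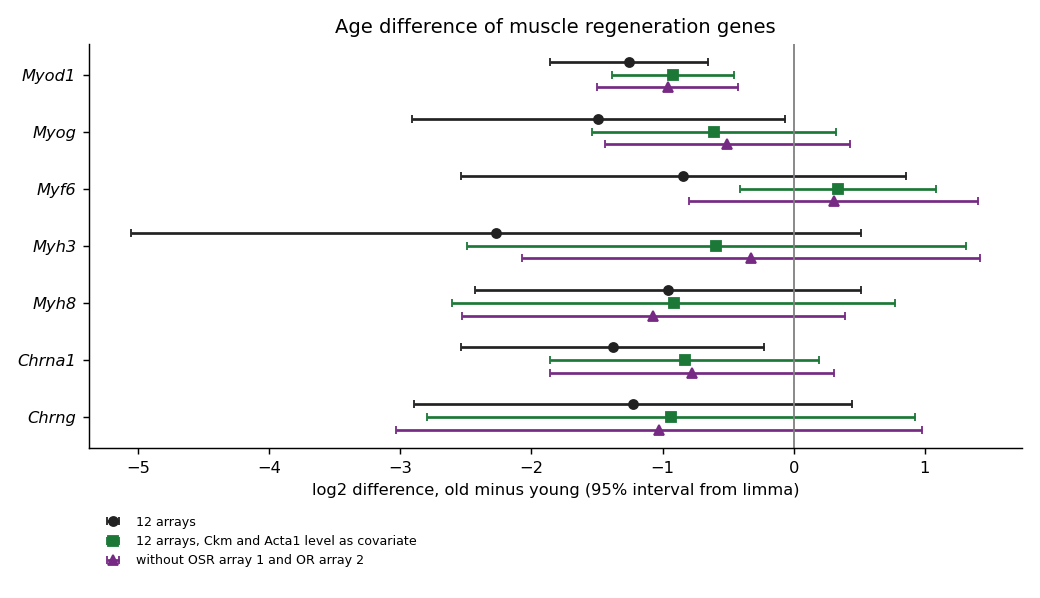
Log2 difference between old and young rats, averaged over fixation (horizontal axis), for each regeneration gene (vertical axis), with the 95% interval from limma. Black circles are all 12 arrays, green squares the same arrays with the mean of Ckm and Acta1 as a covariate, and purple triangles the 10 arrays left without OSR array 1 and OR array 2. The intervals of Myod1 lie below 0 in all 3 fits, and Myf6 changes side.

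The genes divided by how closely they followed adult muscle from array to array. The slope on the mean log2 signal of Ckm and Acta1, fitted by limma with the 4 groups in the model, was 0.70 for Myf6 (SE 0.085), with an adjusted p of 0.00202. It was the one regeneration gene called, where 0.567% of all probe sets were. The slope was 0.52 for Myog (adjusted p 0.0576), 0.99 for Myh3 (0.0828), 0.32 for Chrna1 (0.404), 0.20 for Myod1 (0.209), 0.17 for Chrng (0.857) and 0.03 for Myh8 (0.984). A slope of 1 means that a gene changed by as much as adult muscle did, and Myod1 changed by much less. Among the adult fibre genes 21 of 24 slopes were called, Ckm and Acta1 among them by construction, with a median of 0.80. Without OSR array 1 and OR array 2 the median was 1.03 and 2 of 24 were called, where 0.0193% of all probe sets were.

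The slopes of Myog, Myh3 and Chrna1 rested largely on the 2 arrays of lowest adult muscle level, while those of the other regeneration genes were higher without them. Leaving out OSR array 1 and OR array 2 was a choice made after the data had been seen. The slope was then 0.89 for Myf6 (adjusted p 0.348 by limma), 0.42 for Myod1 (adjusted p 0.390), 0.63 for Myh8 (SE 0.44) and 0.62 for Chrng (SE 0.64). It was 0.13 for Myog, 0.12 for Chrna1 and -0.06 for Myh3. None was called, nor were more than 0.0193% of all probe sets. As a description over the 12 arrays, Pearson's r with the mean of Ckm and Acta1 was 0.91 for Myf6, 0.85 for Myog, 0.79 for Myh3, 0.78 for Myod1 and 0.75 for Chrna1. Over the 10 arrays without those 2 it was 0.80 for Myf6, 0.55 for Myod1, 0.33 for Chrna1, 0.30 for Myog and -0.03 for Myh3. Myf6 thus kept a high r in both sets of arrays, and Myh3 and Myog did not.

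**Figure D3:**
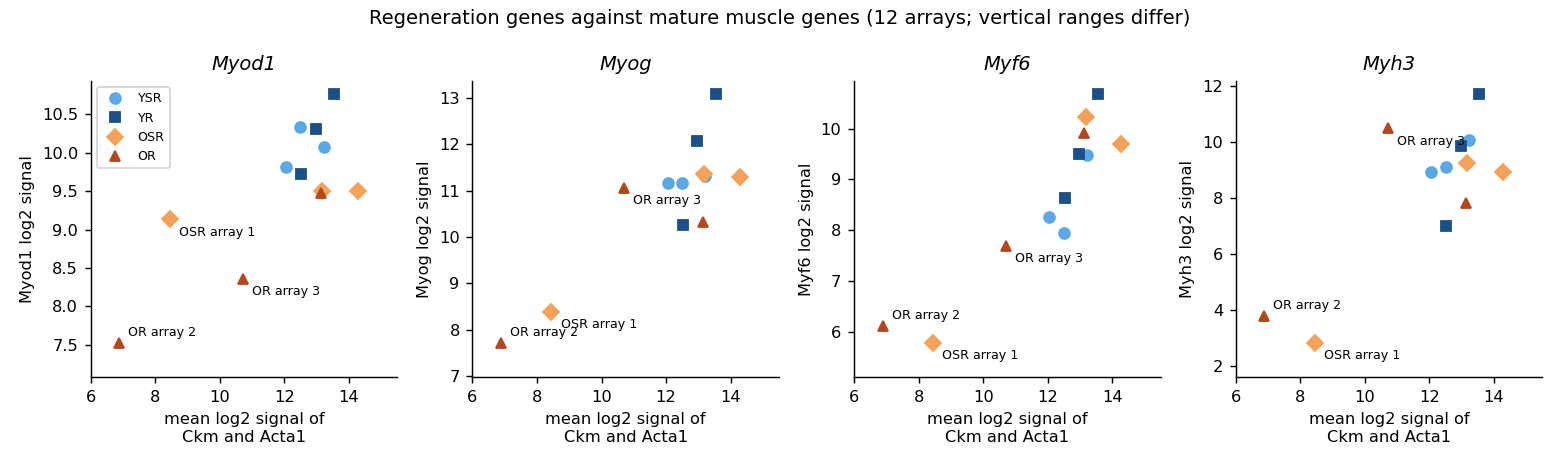
Log2 signal of Myod1, Myog, Myf6 and Myh3 (vertical axes, with different ranges) against the mean log2 signal of Ckm and Acta1 (horizontal axis) on each of the 12 arrays, coloured by group. OSR array 1 and OR array 2, the arrays of lowest adult muscle level, lie at the lower left for Myog, Myf6 and Myh3, while OR array 3 keeps a high Myog (11.05) and Myh3 (10.49) at a mean of 10.71.

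Myog, Myh3 and Chrna1 varied together with and without the 2 arrays of lowest adult muscle level. Their r values, again as a description, were 0.95 for Myh3 with Myog, 0.93 for Chrna1 with Myog and 0.85 for Chrna1 with Myh3 over 12 arrays, and 0.86, 0.93 and 0.81 over the 10 arrays. Chrng had an r of 0.75 with Chrna1 and 0.61 with Myh3 over 12 arrays, and 0.78 and 0.77 over 10. Myf6 had an r of 0.83 with Myog and 0.78 with Myh3 over 12 arrays, but 0.48 and 0.23 over 10. Values on one array share its pool, its labelling and its scaling.

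The genes of most similar pattern were named by Pearson's r, as a description. Among 9563 genes, those with the highest r to Myod1 over the 12 arrays were Mamstr, a coactivator of MEF2 factors (0.92), Snf8, a subunit of an endosomal sorting complex (0.92), and Itga7, the laminin receptor of myoblasts and fibres (0.91). For Myog they were Tnnt2, the troponin T of heart and embryonic skeletal muscle (0.98), Itgb6, an integrin subunit (0.98), and Cav3, the muscle caveolin (0.97). For Myf6 they were Pdlim3 and Nexn, proteins of the Z-disc and of actin filaments (0.98 and 0.96), and Cap2, an actin regulator (0.96). For Myh3 they were Tnnt2 (0.96), Myog (0.95) and Mybph, a myosin-binding protein (0.94), and for Chrna1 Fndc5, the precursor of irisin (0.95), Rdh5, a retinol dehydrogenase (0.95), and Dag1, dystroglycan (0.95). Over the 10 arrays without OSR array 1 and OR array 2 these r values lay between 0.82 and 0.95.

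Relative to adult muscle on the same array, the direction of the age difference depended on the 2 arrays of lowest adult muscle level for 5 of the 7 regeneration genes, and none was called with or without them. For this the mean log2 signal of Ckm and Acta1 was subtracted from each gene on each array. Signals of different probe sets are not on one scale, so this difference has meaning only between arrays and is given here as the deviation from the gene's own mean over 12 arrays. For Myod1 the deviation was -0.73, 0.24 and 0.17 in YSR, -0.37, -0.38 and -0.25 in YR, 3.09, -2.37 and -1.26 in OSR, and -1.25, 3.05 and 0.06 in OR. The young arrays lay close together, while the old arrays lay on both sides of them. The highest were the 2 arrays of lowest adult muscle level, and the lowest was OSR array 2, the array of highest adult muscle level. Over the 12 arrays the subtracted mean ran from 6.89 to 14.28 and the log2 signal of Myod1 from 7.53 to 10.77. The order of these deviations therefore follows largely from the subtracted level.

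With all 12 arrays the age difference on this scale was 0.44 for Myod1 (SE 1.39, adjusted p 0.764 by limma), 0.20 for Myog, 0.85 for Myf6, -0.58 for Myh3, 0.74 for Myh8, 0.31 for Chrna1 and 0.47 for Chrng, each with a standard error from 1.38 to 1.49. None was called, as was 0% of all probe sets, and 0 of 7 had an unadjusted p under 0.05, where 2.65% of all probe sets were higher and 0% lower in old rats. For fixation and for the interaction 0 of 7 were called and 0% of all probe sets were. The standard error of Myod1 was 1.39 on this scale and 0.28 without the subtraction.

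The age difference relative to adult muscle without OSR array 1 and OR array 2 was -0.99 for Myod1 (SE 0.63), -0.53 for Myog (SE 0.63), -1.10 for Myh8 (SE 0.89), -0.80 for Chrna1 (SE 0.67) and -1.05 for Chrng (SE 0.86), each turned from a value above 0. It was 0.28 for Myf6 and -0.35 for Myh3, in the direction of all 12 arrays. The median of the 7 was -0.80, and limma called 0 of them (0.00966% of all probe sets). At an unadjusted p under 0.05 there were 0 of 7, against 0.734% of all probe sets higher and 0.451% lower. For fixation 6 of 7 were above 0 and for the interaction 7 of 7, with medians of 0.63 and 1.00 and 0 of 7 called (0.00322% and 0% of all probe sets). At an unadjusted p under 0.05 there were 0 of 7 in both, where 4.06% and 18.5% of all probe sets were higher. The subtraction adds the same amount to every probe set of an array, so a shared direction on this scale includes that of Ckm and Acta1. Without the subtraction 5 of 7 fixation differences and 6 of 7 interactions were below 0 over these arrays, with medians of -0.06 and -1.23.

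Myh3 relative to adult muscle differed from the other regeneration genes in which arrays were high. Its deviation was 0.50, 0.24 and 0.52 in YSR, 1.82, -1.88 and 0.53 in YR, -1.99, -1.71 and -0.28 in OSR, and -1.67, 0.52 and 3.41 in OR. OR array 3 was the highest and OSR array 1 the lowest, where Myod1, Chrna1 and Chrng had high values in OSR array 1 (3.09, 2.26 and 2.75). The interaction of age and fixation for Myh3 on this scale was 2.35 (SE 2.82, adjusted p 0.698 by limma). Leaving out OSR array 1 and OR array 2 made it 2.13 (SE 1.28, adjusted p 0.212 by limma). Before the subtraction the interaction of Myh3 was 0.20 (SE 2.56) over all arrays and -0.10 (SE 1.58) without those 2. The subtraction adds the same interaction, that of Ckm and Acta1 with its sign turned, to every probe set. The values of 2.35 and 2.13 therefore do not set Myh3 apart from the other genes.

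**Figure D4:**
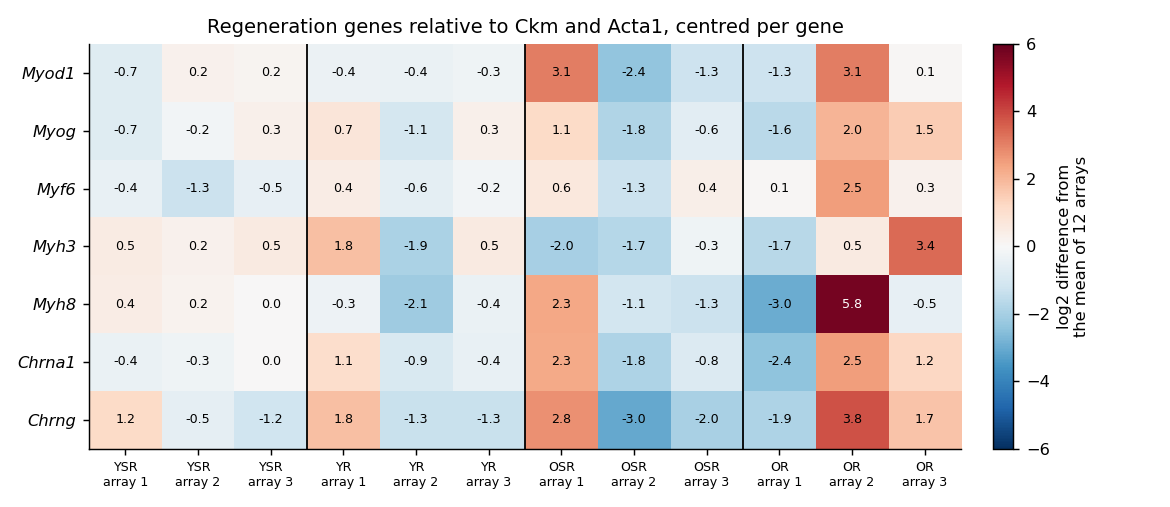
Deviation from the gene's mean over 12 arrays of the log2 signal relative to the mean of Ckm and Acta1 (colour and printed value, log2 units), for each regeneration gene (rows) and array (columns, by group). Of the 7 genes 6 are highest in OSR array 1 or OR array 2, where the subtracted mean was lowest. Myh3 is highest in OR array 3 (3.41).

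Other genes of muscle repair, from lists of named genes, had mixed directions with age, and 0 were called in each list. Of the surface genes of satellite cells and myoblasts 8 of 11 were lower in old rats with a median of -0.23. Itga7 (-1.04, adjusted p 0.337 by limma) and Cdh15, the M-cadherin of myoblasts (-0.67), were lower at an unadjusted p under 0.05. So was Sdc4, a heparan sulfate proteoglycan of satellite cells (-0.41, adjusted p 0.231), as were 3.89% of all probe sets. Vcam1, an adhesion molecule also made by endothelium, was higher at that threshold (0.93, adjusted p 0.212), as were 4.7% of all probe sets. Cdh15 was named for its p after its values had been seen. Cxcr4, the receptor for a chemokine that guides myoblasts, had a difference of -0.0015, and Cav1, caveolin 1, one of -0.10.

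Of the genes of fusion and differentiation 11 of 13 were lower in old rats, with a median of -0.22. At an unadjusted p under 0.05 there were 2 lower (3.89% of all probe sets) and 1 higher (4.7%). Cdkn1a, the inhibitor that takes myoblasts out of the cell cycle, had a difference of -0.97 (SE 0.31, adjusted p 0.373 by limma), Des, the muscle intermediate filament desmin, -0.97 (SE 0.45, adjusted p 0.583), and the transcription factors Mef2a and Mef2c -0.33 and -0.22. On the adult muscle level, the slopes of Des (0.41, adjusted p 0.000568 by limma) and of Cdkn1a (0.25, adjusted p 0.0444) were called, where 0.567% of all probe sets were. Of the embryonic and fetal isoforms 4 of 4 measured were lower in old rats, with a median of -1.04 and 0 at an unadjusted p under 0.05: Myl4, the embryonic light chain (-1.98, adjusted p 0.628 by limma), Tnnc1 (-1.06), Tnnt2 (-1.02) and Mybph (-0.91).

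Of the genes of the neuromuscular junction and of denervation 9 of 12 were lower in old rats, with a median of -0.58. At an unadjusted p under 0.05 there were 2 lower, as were 3.89% of all probe sets. Dok7, needed for the clustering of receptors, had a difference of -0.62 (adjusted p 0.460 by limma), Agrn, the nerve signal for that clustering, 0.25, and the denervation-induced Runx1 and Gadd45a 0.20 and 0.36. The receptor subunits Chrnb1 (slope 0.55, adjusted p 0.0152 by limma) and Chrnd (slope 0.68, adjusted p 0.0230) had slopes on the adult muscle level that were called. The slope of Trim63, a ubiquitin ligase of atrophying fibres, was also called (0.86, adjusted p 0.00180), where 0.567% of all probe sets were. Without OSR array 1 and OR array 2, 0 of the slopes of these lists were called (0.0193% of all probe sets). Of the secreted and Notch pathway regulators of satellite cells 10 of 13 were higher in old rats, with a median of 0.15. At an unadjusted p under 0.05 there were 1 higher (4.7% of all probe sets) and 1 lower (3.89%). The brightest were Igf1 (-0.28), Notch1 (0.05), Tgfb1 (0.64) and Il6, a cytokine also made by leukocytes (0.67, adjusted p 0.257 by limma).

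Markers of other cell types also differed in mean between the ages, and their part in the age differences of the regeneration genes was not tested. Of the neutrophil markers 3 of 4 were higher in old rats at an unadjusted p under 0.05, as were 4.7% of all probe sets, and the summed linear signal of the list ranged from 8745 to 16758 in YSR, from 10601 to 48713 in YR, from 22360 to 63227 in OSR and from 34969 to 85700 in OR. Of the smooth muscle markers 4 of 6 were higher at that threshold, with sums from 3166 to 3376, 1929 to 3637, 2626 to 5723 and 6448 to 7142 in the same order, and of the endothelial markers 3 of 4, with sums from 2036 to 2759, 2199 to 3056, 2135 to 5000 and 3841 to 7938. Of the macrophage markers 3 of 6 were lower, where 3.89% of all probe sets were, with sums from 60167 to 77158, 61586 to 79577, 53198 to 71590 and 52677 to 77308. Of the fibroblast markers 1 was higher and 1 lower of 6, and of the erythroid markers 0 of 3 had an unadjusted p under 0.05. None of these markers was called by limma at an adjusted p under 0.05, and none was at the floor of 1 in any array.

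One adult fibre gene did not behave like the others. The brightest probe set of Myh1, the fast IIx myosin heavy chain, ranged only from 12.45 to 14.01 over the 12 arrays, while that of the neighbouring fast myosin Myh4 ranged from 6.06 to 13.07. Myh1 had 5 probe sets, with mean log2 signals from 11.49 to 13.31. On OSR array 1 the brightest had a linear signal of 9457, while the log2 signal was 2.83 for Myh3 and 3.56 for Myh8. Myosin heavy chain genes are close to each other in sequence. Whether the probe sets of Myh1, Myh3 and Myh8 also bind RNA of their neighbours or of other transcripts was not tested.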

How the data were processed

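Fracture hematoma RNA of 4 groups was hybridized to 12 1-colour Affymetrix rat arrays. The authors deposited linear signal intensity for 31099 probe sets, which ran from 0.1 to 99659 with array medians between 126.9 and 167.5. The submitters' processing notes name GCOS 1.2. Scan files were not used here.

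A floor of 1 was set on the signal before log2. After removal of 57 controls, 31042 probe sets were tested. Names were those of the platform annotation, with 20832 probe sets of a single symbol, 436 of several and 9831 without any. Groups were taken from the labels. All comparisons used limma 3.58.1 in R 4.3.3 (4 group means in one fit, eBayes with an intensity trend) with Benjamini-Hochberg adjustment over the whole array, called at an adjusted p under 0.05. The 7 comparisons were repeated after subtracting the mean of Ckm and Acta1 on each array, and 3 of these (age, fixation and interaction) are reported. Python 3.11.15 (pandas 2.3.3, numpy 2.4.6) gave spread and correlations, and matplotlib 3.10.9 the plots.

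The regeneration genes and the other gene lists were chosen with earlier results of these data known. The text names all regeneration genes, Ckm and Acta1, the genes called or else up to 4 of the brightest of each list of muscle repair genes (Cdh15 and the genes whose slope on adult muscle was called were added after their values had been seen), and the 3 genes most similar to each regeneration gene whose mean reached the median over the array (7.16). Cell type marker lists are given as counts and sums.

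Alternatives were quantile normalization, a pseudocount of 16, a filter that drops probe sets dimmer than the median one, no intensity trend, the methods' ANOVA, the replicate number as a block, removal of the pair of arrays with the strongest Gapdh 3' bias, the adult muscle level as a covariate, and leaving out each of the 12 arrays. On simulated data with 50 of 31042 probe sets changed at each of 4 sizes, limma recovered for the age comparison 36, 47, 49 and 49 of 50 at log2 sizes of 1, 2, 3 and 4, with 13 false calls. The changed probe sets were drawn from those at least as bright as the median one, which Myh8 and Chrng are not. The SD within groups ran from 0.58 for Myod1 to 2.77 for Myh3 among the regeneration genes, against a median of 0.26 over bright probe sets. These recovery rates therefore do not hold for the regeneration genes.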

Additional observations from a re-analysis of the deposited data

How the results depend on the processing

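No regeneration gene was called at an adjusted p under 0.05 in any of the 7 comparisons under any of the 21 other settings. The p came from limma, or from the methods' ANOVA in 1 setting. Nor was any called in the 3 comparisons relative to adult muscle, for which the covariate setting was not run. With unadjusted p under 0.05, 3 of 7 were lower with age in the main fit, as were 3.89% of all probe sets. Over the other settings this count ranged from 1, as with the methods' ANOVA and with the adult muscle level as a covariate, to 4, without OR array 3 or YR array 2. With the covariate 2.71% of all probe sets were lower. Without the 2 arrays of lowest adult muscle level the count was 1 of 7, against 2.31% of all probe sets lower. For the remaining settings that share was not computed, so their counts cannot be set against it. Of the log2 differences for age, fixation and interaction, 394 kept their direction and 41 reversed, none of them a difference of Myod1 (all without subtraction of adult muscle). With the adult muscle level as a covariate, the age difference of Myf6 became 0.34, the fixation difference of Myog 0.31 and the interaction of Chrng 0.30. Without the 2 arrays of lowest adult muscle level, a setting chosen after seeing the data, the age difference of Myf6 was 0.30, its fixation difference -0.062, the interaction of Chrng 0.31 and that of Myh3 -0.10. Without the 2 arrays of highest Gapdh ratio, the fixation difference of Myf6 was -0.082 and the interaction of Myh3 -0.39. With a pseudocount of 16 the interaction of Myh3 was -0.016. Relative to adult muscle, the age differences of 5 of 7 genes turned below 0 without the 2 arrays of lowest adult muscle level, Myod1 from 0.44 to -0.99. Without the subtraction these 5 were below 0 with and without the 2 arrays, Myod1 at -1.26 and -0.96, so they turned only with the subtraction. The subtracted mean of Ckm and Acta1 was 12.80 in young and 11.11 in old rats over the 12 arrays. The causes of the other reversals were not tested.

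Leaving out each array in turn, the fixation difference ranged from -0.72 to 0.028 for Chrna1, from -0.37 to 0.78 for Chrng, from -0.51 to 0.64 for Myf6, from -0.79 to 1.16 for Myh3 and from -0.51 to 0.47 for Myog. The interaction ranged from -1.06 to 1.24 for Chrng, from -1.89 to 2.00 for Myh3 and from -1.03 to 0.42 for Myh8. The age difference kept its direction for all 7 genes in these fits, with that of Myod1 from -1.51 (without OR array 1) to -1.02 (without OR array 2).

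With the replicate number as a block, the age difference of Myod1 was -1.26 (limma's adjusted p 0.269) and 0 regeneration genes were called. The numbers did not pair the arrays: same-numbered arrays of different groups had a median correlation of deviations of 0.019 over 18 pairs, against 0.020 over 36 other pairs. Without dim probe sets, Myh8 and Chrng had no value. A mean over all probe sets of a gene was not run, as each measured gene had 1. Values of dim genes such as Chrng and Myh8 are the least certain.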
